A study of Mus musculus with 24 samples.

Results

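The axon guidance genes described here are the class 3 to 7 semaphorins, the plexins and neuropilins that receive them, the netrins and netrin-G proteins, the Unc5 receptors, the Slit proteins and Robo receptors, and the Eph receptors with their ephrin ligands. They were taken by gene symbol, with the probe set of the highest mean over all arrays standing for each gene, and came to 69 of the 17097 genes named on the array. Of these, 52 had a mean over all arrays at or above 6.27 on the log2 scale, the 40th percentile of all probe sets, and were tested; the other 17 were dim. The symbol rule also took Plxna4os1, an antisense transcript at a plexin locus, and Unc5cl, which is no netrin receptor despite its name, and both were dim.

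Mouse arrays had been hybridised with RNA from what the labels call neural fraction cells, taken from the stroma of oral tumours that SCC25 cells, a human oral squamous carcinoma line, had formed in NOD-SCIDγ (NSG) mice, which lack T, B and natural killer cells. The tumour cells carried shEGR2_40.9 or shEGR2_38.9, which are 2 different hairpins against EGR2, shGAL, the only hairpin against GAL, or PLKO, the non-targeting hairpin that serves as the control. EGR2 is a zinc finger factor that Schwann cells need to form myelin, and GAL is the gene of galanin, a neuropeptide. The mice received a diet rich in palmitic acid (PA-rich) or a control diet. The resulting 8 groups were shEGR2_40.9, shEGR2_38.9, shGAL and PLKO, each on the PA-rich and on the control diet, with 3 arrays per group and 24 in all. The ages of the mice and the number of mice behind a group are not given in the sources used here. The series calls the arrays of a group technical replicates, so the p-values measure only the spread between arrays. The hairpins acted in the human tumour cells, so the mouse arrays do not check the silencing, and whether human tumour RNA bound to them was not tested.

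Axon guidance cues steer growing nerve fibres by attraction and repulsion. Semaphorins signal through plexins, with neuropilins as co-receptors for most secreted class 3 members; netrins attract axons through Dcc and repel them through Unc5 receptors; Slit proteins repel through Robo receptors; and ephrins on one cell bind Eph receptor tyrosine kinases on a neighbouring cell, with signals running in both directions. Blood and lymphatic vessels use many of the same genes, among them Robo4, Plxnd1, Nrp1, Nrp2, Ephb4 and Efnb2, so a guidance gene in the stroma of a tumour need not come from nerve.

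The arrays were closely matched in scale, with array medians between 6.71 and 6.81 on the log2 scale. Replicate 3 of the control-diet group with shEGR2_38.9 stood apart: its 3′ probe set of Gapdh exceeded the 5′ probe set by 0.76, against -0.12 to 0.08 in the other 23 arrays. Its mean correlation with the other arrays of its group was 0.978, against 0.989 to 0.996 in the 21 arrays of the other groups. Of 9 Schwann cell and glial markers named on the array 5 passed the dim filter, with S100b, Mag, Foxd3 and Gfap dim. Of 13 neuronal markers 6 passed, with Snap25, Syn1, Nefl, Nefm, Nefh, Elavl4 and Uchl1 dim. All 12 keratinocyte markers, 14 of 15 endothelial markers and 6 of 6 lymphatic endothelial markers named on the array passed. In bulk RNA of this kind, fewer cells of a type and less RNA per cell cannot be told apart.

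Each of the 12 families had at least 2 members among the 52 tested genes. They held 5 of 7 class 3 semaphorins, 12 of 13 semaphorins of classes 4 to 7, 8 of 10 plexin entries and both neuropilins. They also held 5 of 6 netrins, 3 of 5 Unc5 entries, both Slit genes that had a probe set of their own, 2 of 4 Robo receptors, 4 of 9 EphA receptors, 4 of 4 EphB receptors, 3 of 4 A-type ephrins and 2 of 3 B-type ephrins. The dim members were Sema3d, Sema3e, Sema4f, Plxna4os1, Plxnc1, Ntn3, Unc5cl, Unc5d, Robo2, Robo3, Epha5, Epha6, Epha7, Epha8, Epha10, Efna4 and Efnb3. The nearest genes under the threshold were Epha7 with a mean of 6.20, Efna4 with 6.15 and Sema4f with 6.11, and the nearest above it were Ephb1 with 6.36 and Sema4c and Ntng1 with 6.39 each. Ephb2, Efna3 and Slit3 had no probe set that names them alone and are not analysed here. Across the 8 groups, 33 of the 52 members differed in a moderated F test of limma (adjusted p under 0.05 over all 11844 tested genes), which is 63.5%, against 46.1% of all tested genes. In 10 comparisons of diets and hairpins, 32 members passed the threshold at least once, and 20 members did so in none, among them Slit1, Slit2, Unc5a, Unc5b, Plxna1, Plxna2, Ntng1 and Ntng2. The same count was not made over all genes, so these counts have no background to be set against. The widest ranges of group means belonged to Robo4 (1.79 on the log2 scale), Ntn1 (1.52), Sema4d (1.50), Ephb1 (1.33), Plxnd1 (1.30) and Sema6a (1.15), and the next was 0.84 for Sema5a.

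The promoters of 3 receptor genes among these are shown because the genes moved together in the comparisons that follow: Robo4, a Robo receptor found mainly on endothelial cells, Plxnd1, the plexin that receives Sema3e and guides vessel growth, and Ephb1, a receptor for B-type ephrins. Each sequence runs from 250 bases before to 50 bases after the gene start in RefSeq, build GRCm38.p6, on the strand of the gene, at chr9:37401722-37402021 (plus strand) for Robo4, chr6:115994956-115995255 (minus strand) for Plxnd1 and chr9:102354644-102354943 (minus strand) for Ephb1. Capitals mark GGAAG, the core letters that ETS family factors bind, on either strand, so that CTTCC is the same motif read on the opposite strand.
Robo4: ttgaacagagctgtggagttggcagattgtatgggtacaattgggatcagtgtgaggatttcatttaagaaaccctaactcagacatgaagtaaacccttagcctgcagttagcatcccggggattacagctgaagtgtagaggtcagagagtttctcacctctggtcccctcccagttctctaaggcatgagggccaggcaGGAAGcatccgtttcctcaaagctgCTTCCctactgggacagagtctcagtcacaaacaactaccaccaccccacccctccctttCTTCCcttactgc
Plxnd1: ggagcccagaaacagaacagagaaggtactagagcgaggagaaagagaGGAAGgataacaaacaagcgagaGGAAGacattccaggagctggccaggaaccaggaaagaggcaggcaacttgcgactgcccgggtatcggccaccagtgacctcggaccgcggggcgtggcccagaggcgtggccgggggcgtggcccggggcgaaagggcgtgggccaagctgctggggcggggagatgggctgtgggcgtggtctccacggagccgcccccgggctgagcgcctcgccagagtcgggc
Ephb1: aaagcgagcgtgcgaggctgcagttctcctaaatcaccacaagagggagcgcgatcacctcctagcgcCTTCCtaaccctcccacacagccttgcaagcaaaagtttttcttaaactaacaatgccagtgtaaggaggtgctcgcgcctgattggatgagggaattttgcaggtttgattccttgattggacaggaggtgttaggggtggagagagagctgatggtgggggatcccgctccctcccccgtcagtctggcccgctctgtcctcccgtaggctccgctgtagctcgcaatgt
The motif stood 3 times in the Robo4 window, 2 times in that of Plxnd1 and 1 time in that of Ephb1. It is a common motif: 71.4% of 32851 RefSeq promoter windows of this length held it at least once, with a median of 1. The Egr motif GCGTGGGCG was in none of these 3 windows on either strand, and 0.612% of all the windows held it. A match is a description of the letters, and no binding was measured.

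With both EGR2 hairpins, a set of guidance genes was lower on the PA-rich diet than on the control diet. They were the receptors Robo4, Plxnd1 and Ephb1 and the ligands Ntn1, Sema6a and Sema3a, and the changes ran from -0.50 to -1.33 on the log2 scale. With shEGR2_40.9, 8 of 52 members passed the threshold, 1 higher and 7 lower, which is 15.4% of the members, against 8.95% of all genes (3.73% higher, 5.22% lower). With shEGR2_38.9, 23 of 52 passed, 14 higher and 9 lower, which is 44.2%, against 22.1% of all genes (13.8% higher, 8.30% lower). The median change over the members was -0.02 with shEGR2_40.9, against 0.03 over all genes, and 0.06 with shEGR2_38.9, against 0.07 over all genes. The median of the members thus lay close to that of all genes with both hairpins. These diet comparisons share no arrays. They had 7 members in common, 87.5% of the calls with shEGR2_40.9 and 30.4% of those with shEGR2_38.9, and all 7 had the same sign. Over all genes, 636 calls were in common, 60.0% of those with shEGR2_40.9 and 24.2% of those with shEGR2_38.9, 596 of them with the same sign.

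Robo4 had log2 values of 7.64, 7.60 and 7.31 on the PA-rich diet, against 9.11, 8.76 and 8.66 on the control diet, with shEGR2_40.9. With shEGR2_38.9 the values of Robo4 were 8.06, 8.19 and 8.19 on the PA-rich diet, against 9.71, 9.82 and 8.37 on the control diet. The diets did not overlap with either hairpin, and the array that stood apart, the last one given, was the only control-diet array of shEGR2_38.9 close to the PA-rich ones. The change was -1.33 with shEGR2_40.9 (SE 0.27, limma adjusted p = 0.00254) and -1.15 with shEGR2_38.9 (SE 0.27, limma adjusted p = 0.00367). Without the array that stood apart it was -1.62 with shEGR2_38.9, and in a fit of the shEGR2_38.9 arrays alone the limma adjusted p was 0.0618.

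Plxnd1 had log2 values of 7.03, 7.14 and 7.02 on the PA-rich diet, against 7.68, 7.55 and 7.55 on the control diet, with shEGR2_40.9. With shEGR2_38.9 the Plxnd1 values were 7.36, 7.30 and 7.25 on the PA-rich diet, against 8.55, 8.31 and 8.22 on the control diet. Every PA-rich array lay below every control array of its hairpin, and the gap was wider with shEGR2_38.9. Plxnd1 fell by 0.53 with shEGR2_40.9 (SE 0.08, limma adjusted p = 0.000139) and fell by 1.05 with shEGR2_38.9 (SE 0.08, limma adjusted p = 7.81e-09).

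Ephb1 had log2 values of 5.97, 5.94 and 6.03 on the PA-rich diet, against 6.83, 6.50 and 6.68 on the control diet, with shEGR2_40.9. With shEGR2_38.9 the values of Ephb1 were 6.09, 6.53 and 6.33 on the PA-rich diet, against 7.19, 7.44 and 7.31 on the control diet. The diets did not overlap with either hairpin, and with shEGR2_40.9 the PA-rich arrays lay under the dim threshold while the control arrays lay above it. Ephb1 fell by 0.69 with shEGR2_40.9 (SE 0.14, limma adjusted p = 0.00178) and fell by 1.00 with shEGR2_38.9 (SE 0.14, limma adjusted p = 1.16e-05). Only 3 of its 8 group means lay above the threshold, those of shEGR2_38.9 on both diets and of shEGR2_40.9 on the control diet, so Ephb1 passed the dim filter through the groups where it was high, and its folds are set against dim groups.

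Among the ligands, Ntn1, the secreted netrin that attracts or repels axons depending on the receptor, had the largest fall with shEGR2_38.9. Its log2 values were 6.88, 6.64 and 6.57 on the PA-rich diet, against 8.13, 7.73 and 7.55 on the control diet, with shEGR2_40.9. With shEGR2_38.9 they were 7.0, 6.77 and 6.68 on the PA-rich diet, against 7.97, 8.44 and 7.72 on the control diet. No PA-rich array reached the lowest control array with either hairpin. Ntn1 fell by 1.11 with shEGR2_40.9 (SE 0.17, limma adjusted p = 9.74e-05) and fell by 1.23 with shEGR2_38.9 (SE 0.17, limma adjusted p = 9.24e-06). A dimmer probe set of Ntn1, with a mean of 5.84, differed between the diets by only -0.04 with shEGR2_40.9 and -0.08 with shEGR2_38.9.

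Sema6a, a membrane-bound semaphorin that signals through A-type plexins, had log2 values of 8.71, 8.90 and 8.86 on the PA-rich diet, against 9.85, 9.60 and 9.74 on the control diet, with shEGR2_40.9. With shEGR2_38.9 the Sema6a values were 9.01, 8.76 and 9.01 on the PA-rich diet, against 9.85, 9.73 and 9.71 on the control diet. The diets were well separated with both hairpins, and the control-diet values of the hairpins lay in nearly the same range. Sema6a fell by 0.91 with shEGR2_40.9 (SE 0.09, limma adjusted p = 6.48e-07) and fell by 0.84 with shEGR2_38.9 (SE 0.09, limma adjusted p = 3.44e-07). A second bright probe set of Sema6a gave -0.87 with shEGR2_40.9 and -0.76 with shEGR2_38.9.

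Sema3a, a secreted repellent that binds Nrp1, had log2 values of 6.22, 6.29 and 6.27 on the PA-rich diet, against 6.78, 6.77 and 6.73 on the control diet, with shEGR2_40.9. With shEGR2_38.9 the Sema3a values were 6.50, 6.33 and 6.40 on the PA-rich diet, against 7.03, 6.99 and 6.75 on the control diet. The groups were again apart, at levels near the dim threshold. Sema3a fell by 0.50 with shEGR2_40.9 (SE 0.11, limma adjusted p = 0.00411) and fell by 0.51 with shEGR2_38.9 (SE 0.11, limma adjusted p = 0.00152). Another, dimmer probe set of the gene, singled out after its values were seen, averaged 5.09 on the PA-rich diet, against 6.80 on the control diet, with shEGR2_40.9, and 5.63 on the PA-rich diet, against 7.67 on the control diet, with shEGR2_38.9.

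The further members past the threshold with shEGR2_40.9 were Sema4g, a membrane-bound class 4 semaphorin, and Nrp2, the co-receptor of Sema3f and of the lymphatic growth factor VEGF-C. Sema4g had log2 values of 7.43, 7.09 and 7.08 on the PA-rich diet, against 6.63, 6.75 and 6.92 on the control diet, a rise of 0.43 (SE 0.11, limma adjusted p = 0.0134). Nrp2 fell by 0.37 (SE 0.10, limma adjusted p = 0.0258), with values of 10.64, 10.58 and 10.66 on the PA-rich diet, against 11.05, 10.92 and 11.02 on the control diet. Neither gene overlapped between the diets. The call of Sema4g was lost without PA-rich replicate 1 (0.32, limma adjusted p = 0.113) or control replicate 1 (0.37, limma adjusted p = 0.0791), and that of Nrp2 without any of 5 of the 6 shEGR2_40.9 arrays, with limma adjusted p up to 0.0953. Without the array that stood apart, the limma adjusted p was 0.000127 for Nrp2 and 0.0104 for Sema4g.

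**Figure D1:**
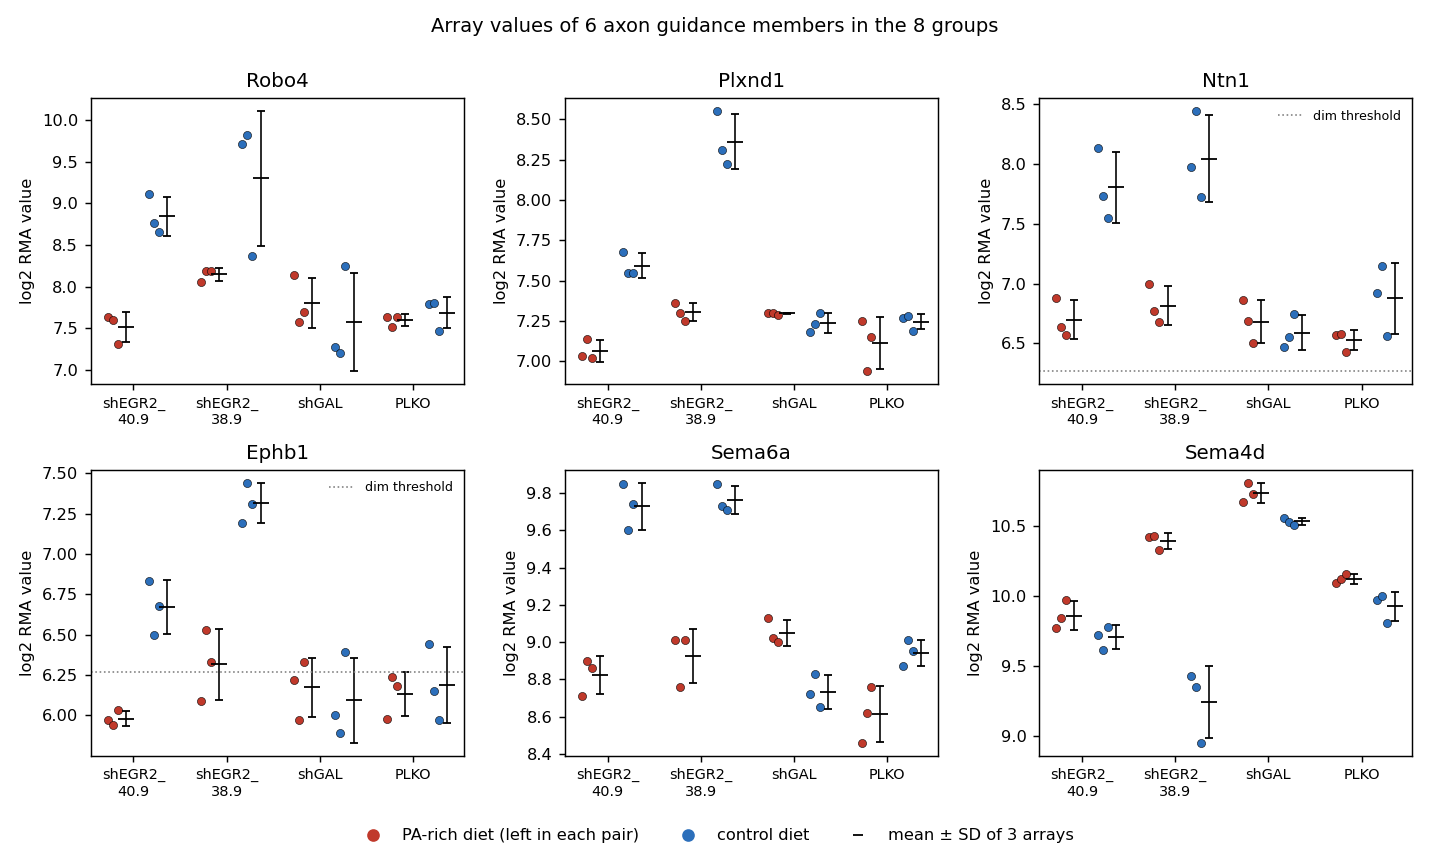
Log2 values of Robo4, Plxnd1, Ntn1, Ephb1, Sema6a and Sema4d on each array, by hairpin, with the PA-rich diet (red) left of the control diet (blue) and the mean ± SD of 3 arrays beside the points; the dotted line is the dim threshold of 6.27. In the first 5 genes the control-diet arrays of the EGR2 hairpins lie above all other arrays, apart from Ephb1, where 1 shEGR2_40.9 array at 6.50 lies under a PA-rich array of shEGR2_38.9 at 6.53, while Sema4d is lowest in the control-diet arrays of shEGR2_38.9.

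With shEGR2_38.9 the PA-rich diet also went with higher levels of many members, which had 14 calls of a rise. They were mostly class 4 semaphorins, B-type plexins, Eph receptors and ephrins. The largest rise was that of Sema4d, the class 4 semaphorin that binds plexin-B1. Its log2 values were 10.42, 10.43 and 10.33 on the PA-rich diet, against 9.43, 9.35 and 8.95 on the control diet. All PA-rich arrays lay far above the highest control array, and the array that stood apart was the lowest. Sema4d rose by 1.15 (SE 0.09, limma adjusted p = 1.17e-08), or by 1.00 without that array. With shEGR2_40.9 the Sema4d values were 9.77, 9.84 and 9.97 on the PA-rich diet, against 9.72, 9.61 and 9.78 on the control diet, and these ranges overlapped.

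Among the semaphorins, Sema4b rose by 0.57 with shEGR2_38.9 (SE 0.08, limma adjusted p = 2.98e-05), Sema4g by 0.56 (SE 0.11, limma adjusted p = 0.000662) and Sema4a by 0.42 (SE 0.12, limma adjusted p = 0.011). The Sema4a call was lost without control replicate 2 (0.32) or PA-rich replicate 3 (0.36). Without the array that stood apart, the Sema4a rise was 0.58 (limma adjusted p = 0.000564). Sema4b had values of 11.59, 11.59 and 11.56 on the PA-rich diet, against 11.18, 11.06 and 10.79 on the control diet, and Sema4g had 7.12, 7.12 and 6.88 on the PA-rich diet, against 6.69, 6.18 and 6.58 on the control diet. Both were higher on every PA-rich array. Of their receptors, Plxnb1 rose by 0.44 and Plxnb2 by 0.35, with Plxnb1 values of 10.52, 10.53 and 10.55 on the PA-rich diet, against 10.27, 10.16 and 9.86 on the control diet. Plxna3 rose by 0.26 (limma adjusted p = 0.0449), a call that was lost without the array that stood apart (0.18, limma adjusted p = 0.201), and Plxna4 fell by 0.29 (limma adjusted p = 0.0179), which did not pass without control replicate 1 or 2 (-0.25 each) or PA-rich replicate 2 (-0.23). Without the array that stood apart, the Plxna4 change was -0.38 (limma adjusted p = 0.00214).

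Eph receptors and ephrins made up the rest of the rises with shEGR2_38.9, beside Robo1, a receptor of Slit proteins, which rose by 0.30 but did not pass without PA-rich replicate 2 (0.25), and Unc5c, a netrin receptor for repulsion, which rose by 0.30. Efna5, a ligand anchored by a lipid tail, rose by 0.52 (SE 0.08, limma adjusted p = 2.25e-05), with values of 10.11, 10.28 and 10.21 on the PA-rich diet, against 9.76, 9.72 and 9.57 on the control diet. Ephb6, an Eph receptor without kinase activity, rose by 0.50, Efnb1 by 0.44 and Epha2, a receptor abundant in epithelia, by 0.38. Epha1 was higher by 0.51 on its brightest probe set, but 2 further bright probe sets of the gene went the opposite way (-0.29 and -0.80), and their mean turned its sign. Falls were seen for Ntn4, a netrin of basement membranes, by 0.58 (SE 0.11, limma adjusted p = 0.000604), and for Ephb4, the Eph receptor of veins, by 0.23 (limma adjusted p = 0.0489, or 0.051 with scan batch as a block), which was -0.15 without control replicate 1. Without the array that stood apart, the Ephb4 change was -0.32 (limma adjusted p = 0.00726).

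In the same comparisons, markers of vessel cells moved with the members that fell. The mean log2 level of 14 endothelial markers ran from 7.88 to 8.09 on the PA-rich diet, against 8.95 to 9.17 on the control diet, with shEGR2_40.9, and from 7.97 to 8.19 on the PA-rich diet, against 9.0 to 9.51 on the control diet, with shEGR2_38.9. Of these 14 markers 11 fell with shEGR2_40.9 and 12 with shEGR2_38.9, with median changes of -1.03 and -1.40, and 0 rose. Of 6 lymphatic endothelial markers 5 fell with shEGR2_40.9 and 6 with shEGR2_38.9, with median changes of -2.07 and -1.73. Of 8 pericyte and smooth muscle markers, 0 passed the threshold with shEGR2_40.9 and 3 fell with shEGR2_38.9. The mean level of 12 keratinocyte markers ran from 11.35 to 11.49 on the PA-rich diet, against 10.83 to 11.29 on the control diet, with shEGR2_38.9. There Krt6b and Krt10 rose, which is 16.7%, near the 13.8% of all genes that rose, and 0 of the 12 passed with shEGR2_40.9. Of 5 macrophage markers that were not dim, 2 fell with shEGR2_40.9 and 3 with shEGR2_38.9, and of 5 such fibroblast markers 3 fell with shEGR2_40.9, while 1 rose and 1 fell with shEGR2_38.9. Of 5 Schwann cell and glial markers that were not dim, 1 rose with each EGR2 hairpin, which is 20.0%. They were Ngfr with shEGR2_40.9 (0.43) and Erbb3 with shEGR2_38.9 (0.38). Of 6 such neuronal markers, 0 passed with shEGR2_40.9 and 1 rose with shEGR2_38.9, Isl1 (0.57). Over all genes 3.73% rose with shEGR2_40.9 and 13.8% with shEGR2_38.9. The part of these cell types in the changes of the guidance genes was not tested.

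**Figure D2:**
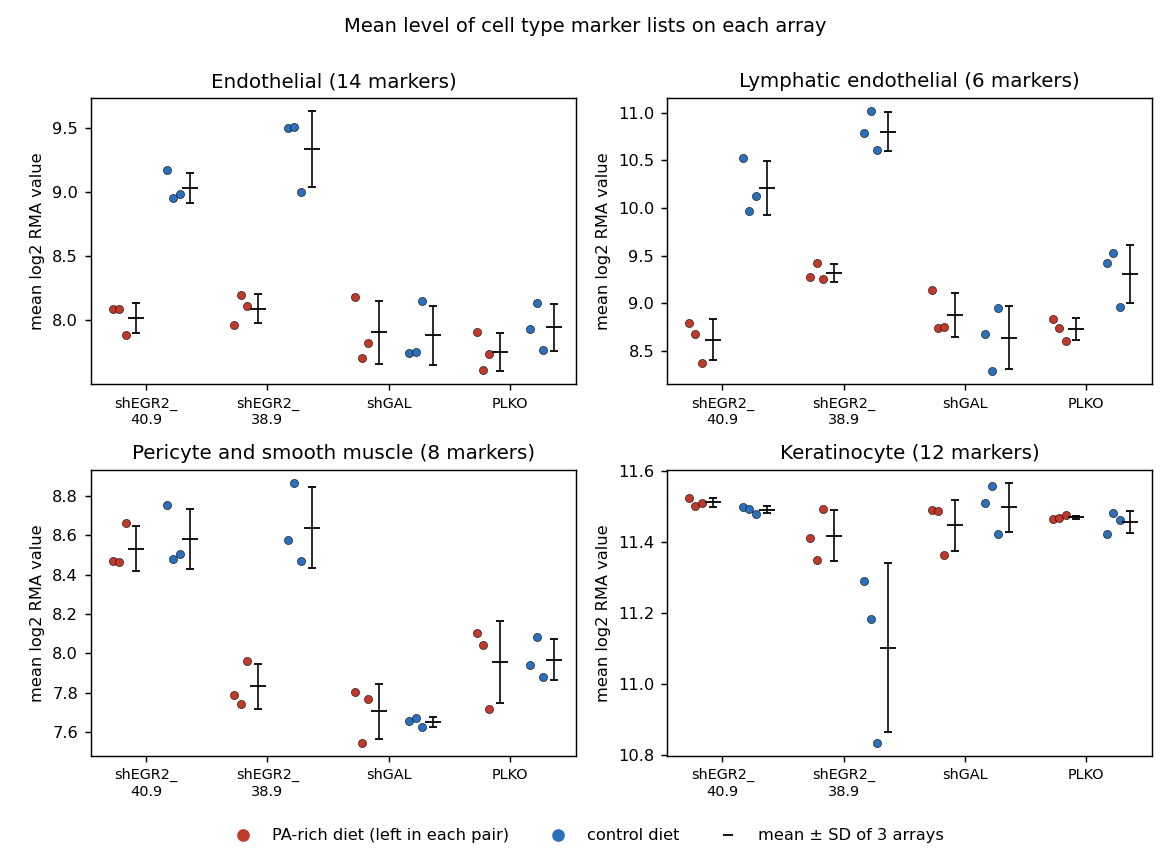
Mean log2 value of 14 endothelial, 6 lymphatic endothelial, 8 pericyte and smooth muscle and 12 keratinocyte markers on each array, by hairpin, with the PA-rich diet (red) left of the control diet (blue) and the mean ± SD of 3 arrays beside the points. The endothelial means of the EGR2 hairpins lie between 8.95 and 9.51 on the control diet and all other arrays lie at or below 8.19; the keratinocyte mean is lowest, at 10.83, on the shEGR2_38.9 array that stood apart.

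With shGAL and with PLKO the diets differed in few members. With shGAL 2 of 52 fell and 0 rose, which is 3.85%, against 1.94% of all genes (1.33% higher, 0.608% lower). Unc5c had log2 values of 7.27, 7.31 and 7.29 on the PA-rich diet, against 7.92, 7.98 and 7.93 on the control diet. All values were tight within a diet and far apart between diets, and Unc5c fell by 0.66 (SE 0.08, limma adjusted p = 0.000119). Nrp2 fell by 0.45 (SE 0.10, limma adjusted p = 0.026), with 10.68, 10.68 and 10.67 on the PA-rich diet, against 11.12, 11.12 and 11.13 on the control diet. The diets did not overlap in Nrp2, but its call was lost without any of 5 of the 6 shGAL arrays, with limma adjusted p between 0.0595 and 0.11. Without the array that stood apart, which is not a shGAL array, the limma adjusted p of Nrp2 was 0.0002. With the mean of its probe sets the change of Nrp2 was -0.26 (limma adjusted p = 0.0956). With the scan batch as a block, 4 members passed with shGAL, as Sema5a (0.61, limma adjusted p = 0.0539, or 0.0471 with the block) and Sema6d (-0.35, limma adjusted p = 0.087, or 0.0393 with the block) came in.

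With PLKO, 1 of 52 members rose and 0 fell, which is 1.92%, against 1.18% of all genes (0.371% higher, 0.811% lower). It was Sema3c, a secreted class 3 semaphorin that acts through both neuropilins, with log2 values of 10.82, 10.68 and 10.76 on the PA-rich diet, against 10.28, 10.24 and 10.53 on the control diet. The diets did not overlap, and control replicate 3 lay nearest to the PA-rich arrays. Sema3c rose by 0.41 (SE 0.09, limma adjusted p = 0.028), a call lost without any of the 3 PA-rich arrays or without control replicate 1 or 2 (limma adjusted p between 0.053 and 0.161). The members that fell with the EGR2 hairpins did not pass with PLKO: Robo4 had 7.63, 7.51 and 7.64 on the PA-rich diet, against 7.79, 7.80 and 7.47 on the control diet, and Plxnd1 had 7.25, 6.94 and 7.15 on the PA-rich diet, against 7.27, 7.28 and 7.19 on the control diet. Sema6a had 8.46, 8.62 and 8.76 on the PA-rich diet with PLKO, against 8.87, 9.01 and 8.95 on the control diet, which did not overlap but did not pass the threshold. Of 6 neuronal markers 1 fell with PLKO, Tubb3 (-0.75, limma adjusted p = 0.00054), and of 5 Schwann cell and glial markers 0 passed.

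**Figure D3:**
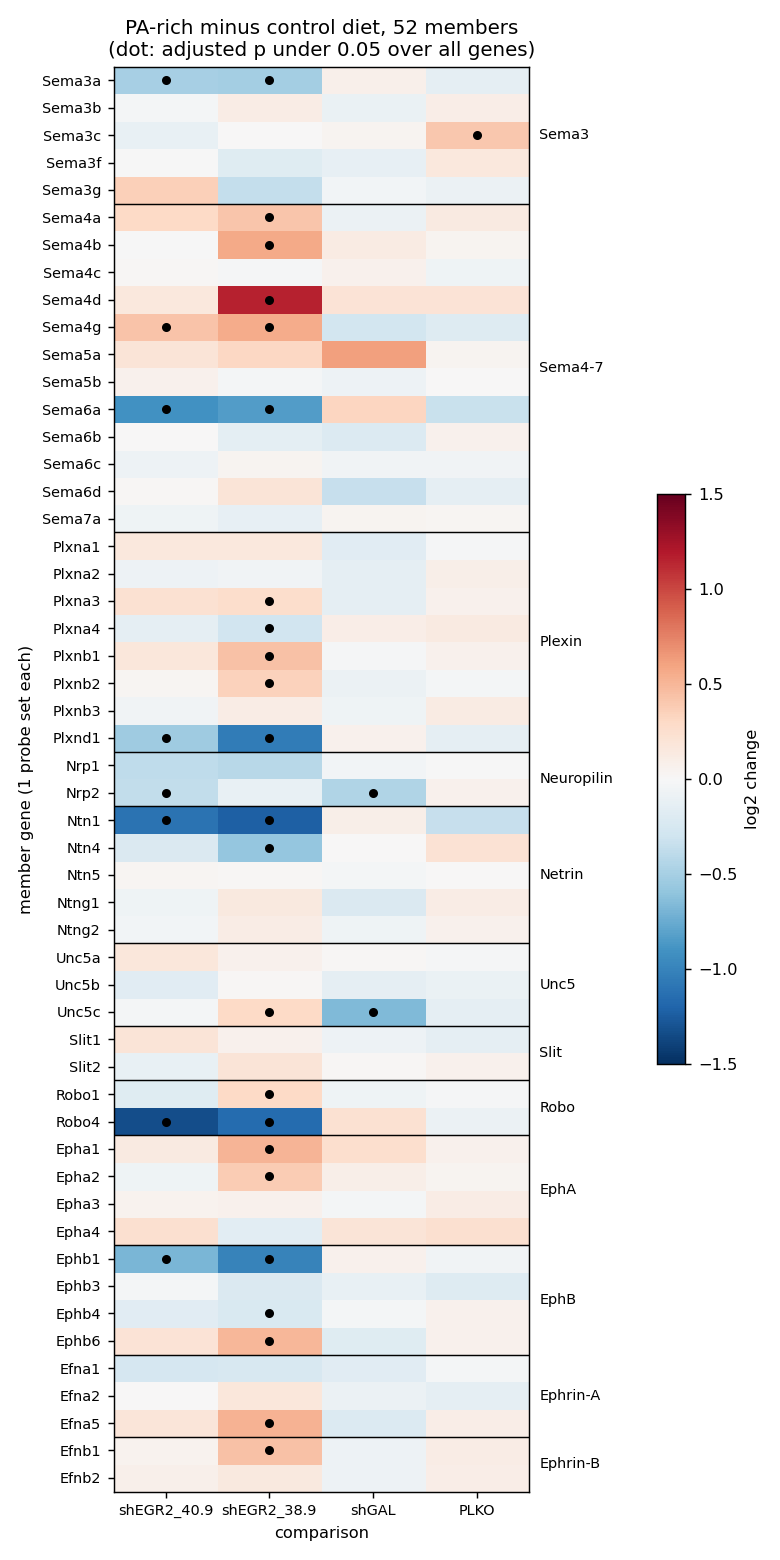
Log2 change of the 52 tested members, PA-rich minus control diet, in columns for shEGR2_40.9, shEGR2_38.9, shGAL and PLKO and rows grouped by family; blue is lower and red higher on the PA-rich diet, and a dot marks an adjusted p under 0.05 over all genes. The dots number 8, 23, 2 and 1 in the order of the columns, and Robo4, Ntn1, Ephb1, Plxnd1, Sema6a and Sema3a are blue with a dot for both EGR2 hairpins.

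The difference of the diet effect between the EGR2 hairpins and PLKO was tested in the same model, as the diet change averaged over both hairpins minus that of PLKO. Of 52 members 10 passed, 2 higher and 8 lower, which is 19.2%, against 9.74% of all genes (5.18% higher, 4.57% lower). The diet change was more negative with the EGR2 hairpins for Robo4 (-1.15, SE 0.34, limma adjusted p = 0.0305), Ntn1 (-0.81, SE 0.20, limma adjusted p = 0.0116), Ephb1 (-0.79, SE 0.17, limma adjusted p = 0.00349) and Plxnd1 (-0.66, SE 0.10, limma adjusted p = 0.000168). Ephb1 was dim with PLKO, with group means of 6.14 on the PA-rich and 6.19 on the control diet, so its difference is set against dim groups. It was also more negative for Ntn4 (-0.62, SE 0.14, limma adjusted p = 0.0053), Sema6a (-0.54, SE 0.11, limma adjusted p = 0.00247) and Sema3c (-0.46, SE 0.11, limma adjusted p = 0.0097). For Plxna4 the difference was -0.34 (limma adjusted p = 0.0459, or 0.0599 with scan batch as a block). Sema4g had a more positive diet change with the EGR2 hairpins (0.69, SE 0.13, limma adjusted p = 0.00185). Sema4d passed as well (0.45, limma adjusted p = 0.0117), but its difference was -0.04 with shEGR2_40.9 alone and 0.95 with shEGR2_38.9 alone, and with the mean of its probe sets the difference averaged over both hairpins was 0.23 and did not pass (limma adjusted p = 0.164). Taken alone, shEGR2_40.9 gave a Robo4 difference of -1.24 (limma adjusted p = 0.0762, or 0.0486 with scan batch as a block) and shEGR2_38.9 one of -1.06 (limma adjusted p = 0.0735, or 0.0465 with the block). With shEGR2_40.9 alone, Ntn1 (-0.75, limma adjusted p = 0.0745) and Ephb1 (-0.64, limma adjusted p = 0.0661) passed only with the block (0.0219 and 0.0244). Plxnd1 (-0.39, limma adjusted p = 0.0585), Ntn4 (-0.44, limma adjusted p = 0.142) and Plxna4 (-0.26, limma adjusted p = 0.307) passed in neither fit, while Sema6a, Sema3c and Sema4g passed. In a fit without the array that stood apart, Robo4, Plxnd1 and Ntn1 passed with shEGR2_40.9 alone (limma adjusted p = 0.00951, 0.0261 and 0.0414). Ephb1, Ntn4 and Plxna4 did not (limma adjusted p = 0.0554, 0.11 and 0.163). In the main fit of shEGR2_38.9 alone, every gene named here but Robo4 passed. Without the array that stood apart, Robo4 passed there (-1.53, limma adjusted p = 0.00121) and Sema3c did not (-0.33, limma adjusted p = 0.0944). The averaged Robo4 call was lost without each of 6 arrays, among them PLKO control replicate 3 (-1.04, limma adjusted p = 0.0935) and the PLKO PA-rich arrays, and that of Ntn1 without PLKO control replicate 3 (-0.66, limma adjusted p = 0.0565). Without the array that stood apart, the averaged Robo4 difference was -1.38 (limma adjusted p = 0.000707). Of the 14 endothelial markers 12 had a more negative diet change with the EGR2 hairpins, with a median of -1.04. Of 6 neuronal markers 1 had a more positive diet change, Tubb3 (0.77, limma adjusted p = 0.000322). Among 5 Schwann cell and glial markers 0 passed.

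For shGAL the diet change differed from that of PLKO in 2 of 52 members, which is 3.85%, 1 higher and 1 lower, against 1.33% of all genes (1.01% higher, 0.321% lower). Sema6a had values of 9.13, 9.02 and 9.0 on the PA-rich diet, against 8.72, 8.83 and 8.65 on the control diet, with shGAL. The shGAL arrays thus had Sema6a higher on every PA-rich array, opposite to the order with PLKO given above, and the difference of the diet changes was 0.65 (SE 0.13, limma adjusted p = 0.00982). For Unc5c it was -0.52 (SE 0.11, limma adjusted p = 0.0192), with PLKO values of 7.58, 7.33 and 7.25 on the PA-rich diet and 7.65, 7.43 and 7.50 on the control diet. That call was lost without PLKO control replicate 2, PLKO PA-rich replicate 1 or shGAL control replicate 2 (limma adjusted p between 0.0534 and 0.0688).

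Set against PLKO on the control diet, the EGR2 hairpins had higher levels of the receptors Robo4, Plxnd1 and Ephb1 and of Ntn1 and Sema6a. They had lower levels of the class 4 semaphorins Sema4b, Sema4d and Sema4g. Among the vessel genes named at the start, Nrp1, Nrp2, Ephb4 and Efnb2 did not pass. This comparison uses the control-diet arrays that the diet comparisons also use, so it is no separate evidence for the levels in them. Of 52 members 18 passed, 10 higher and 8 lower, which is 34.6%, against 25.2% of all genes (10.8% higher, 14.5% lower). The median over the members was -0.04, against -0.06 over all genes. The largest rise was that of Robo4 (1.38, SE 0.24, limma adjusted p = 0.000155), whose PLKO values on the control diet overlapped with none of the control-diet values of the EGR2 hairpins. It was 1.16 with shEGR2_40.9 alone and 1.61 with shEGR2_38.9 alone.

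Ntn1 was higher by 1.04 (SE 0.14, limma adjusted p = 1.15e-05) than with PLKO, which on this diet had log2 values of 6.92, 7.15 and 6.56. Sema6a was higher by 0.80 (SE 0.08, limma adjusted p = 9.88e-08). Ephb1 was higher by 0.80 (SE 0.12, limma adjusted p = 2.79e-05), and its PLKO control-diet values were 6.44, 6.15 and 5.97, a group mean under the dim threshold. Plxnd1 was higher by 0.73 (SE 0.07, limma adjusted p = 1.14e-07), but by 0.34 with shEGR2_40.9 alone and by 1.11 with shEGR2_38.9 alone. For these 4 genes, all 6 control-diet arrays of the EGR2 hairpins lay above all 3 PLKO arrays. Ntn4 was higher by 0.48, with 7.17, 7.24 and 6.83 for shEGR2_40.9 and 7.19, 7.54 and 7.30 for shEGR2_38.9, against 6.83, 6.73 and 6.65 for PLKO, so that 1 array of shEGR2_40.9 met the highest PLKO array.

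Relative to PLKO on the control diet, Sema4g fell by 0.51 with the EGR2 hairpins (SE 0.10, limma adjusted p = 0.00035), Sema4d fell by 0.45 (SE 0.08, limma adjusted p = 0.000233) and Sema4b fell by 0.32 (SE 0.07, limma adjusted p = 0.0021). Sema4d fell mainly with shEGR2_38.9, by 0.68, against a difference of -0.22 with shEGR2_40.9 that did not pass (limma adjusted p = 0.13). Efna5 fell by 0.35, and Sema6d, a ligand of Plxna1, fell by 0.37, which was -0.29 without PLKO control replicate 3 (limma adjusted p = 0.052). Epha1 fell by 0.44 on its brightest probe set, but was higher by 0.21 in the mean of its probe sets. Sema3c was higher by 0.38. With the block Sema4a (-0.34, limma adjusted p = 0.0129) and Sema5a (-0.46, limma adjusted p = 0.0385) passed as well. Another 5 members passed at first but did not with scan batch as a block: Sema3f, higher by 0.32 (0.0509 with the block), Plxnb1, which fell by 0.26 (0.0667), Ephb3, higher by 0.26 (0.211), Plxna4, higher by 0.25 (0.109), and Efna2, which fell by 0.22 (0.11), where each value in parentheses is the limma adjusted p with the block. Sema3f was higher by only 0.16 without PLKO control replicate 3. Of 14 endothelial markers 13 were higher with the EGR2 hairpins (median 1.29), of 6 lymphatic markers all 6 (median 1.49) and of 8 pericyte and smooth muscle markers 4. Of 5 macrophage markers 3 were higher, with Mrc1 at 1.87. Of 5 fibroblast markers 2 were higher, Col1a1 (1.81) and Thy1 (0.92), and 1 lower. Of 12 keratinocyte markers 2 were lower, which is 16.7%, near the 14.5% of all genes that were lower. Of 5 Schwann cell and glial markers Pmp22 (0.42) was higher and Erbb3 (-0.17) lower, and of 6 neuronal markers Tubb3 (-0.31) was lower. The part of these cell types in these differences was not tested.

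On the PA-rich diet, 0 of 52 members passed between the EGR2 hairpins and PLKO with limma, where 1.11% of all genes did (0.794% higher, 0.321% lower). At an unadjusted limma p under 0.05 there were 5 of 52 members, against 11.8% of all genes. The members nearest to the threshold were Ephb3 (0.33, limma adjusted p = 0.104) and Sema6a (0.26, limma adjusted p = 0.114). A fit of only the arrays compared called 1 member, as did the fit without the array that stood apart. The PA-rich values of Ntn1 were 6.57, 6.58 and 6.43 with PLKO, which lay at the lower edge of or just under those of the EGR2 hairpins given above. Of 14 endothelial markers 0 passed, with a median of 0.24. Among 6 neuronal markers 1 was higher, Tubb3 (0.46, limma adjusted p = 0.0075), and of 5 Schwann cell and glial markers 0 passed. Of the single hairpins, shEGR2_40.9 had 3 calls of 52 (5.77%, against 4.02% of all genes) and shEGR2_38.9 had 0 (0.625% of all genes).

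The tumours with the GAL hairpin differed from PLKO in class 4 to 6 semaphorins, Ephb3, Epha2, Efnb1 and Plxnb2, and 7 genes had calls on both diets. Not all of these differences were particular to shGAL. On the control diet Sema3c, Sema6d and Ephb3 had calls of the same sign with the EGR2 hairpins, and Sema4d one of the opposite sign. The EGR2 and shGAL comparisons on a diet use the same PLKO arrays. The shGAL comparisons on the separate diets share no arrays. On the PA-rich diet 11 of 52 members passed, 7 higher and 4 lower, which is 21.2%, against 12.4% of all genes (7.60% higher, 4.77% lower). On the control diet 11 of 52 passed, 8 higher and 3 lower, again 21.2%, against 17.0% of all genes (7.15% higher, 9.84% lower). The 7 members called on both diets, 63.6% of the calls on each, had the same sign on both. Over all genes 695 calls were in common, 47.4% of those on the PA-rich diet and 34.5% of those on the control diet, 678 of them with the same sign. The median over the members was -0.03 on the PA-rich diet, against -0.04 over all genes, and 0.04 on the control diet, against -0.01 over all genes.

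Sema4d had values of 10.67, 10.81 and 10.73 with shGAL on the PA-rich diet, against 10.09, 10.12 and 10.16 with PLKO. On the control diet the Sema4d values were 10.56, 10.53 and 10.51 with shGAL, against 9.97, 10.00 and 9.81 with PLKO. The shGAL arrays were above all PLKO arrays on both diets. Sema4d was higher by 0.61 on the PA-rich diet (SE 0.09, limma adjusted p = 9.49e-05) and by 0.60 on the control diet (SE 0.09, limma adjusted p = 0.000114).

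Relative to PLKO, Sema6d fell by 0.64 on the PA-rich diet (SE 0.10, limma adjusted p = 0.000197) and fell by 0.44 on the control diet (SE 0.10, limma adjusted p = 0.00564). Its values were 9.22, 9.05 and 9.27 with shGAL on the PA-rich diet, against 9.73, 9.79 and 9.96 with PLKO, and 9.63, 9.32 and 9.62 with shGAL on the control diet, against 9.72, 10.06 and 10.11 with PLKO. No array of shGAL reached the PLKO range on either diet, although the mean of its probe sets gave only -0.16 on the control diet (limma adjusted p = 0.085). Sema4c, a ligand of plexin-B2, fell by 0.44 on the PA-rich diet (limma adjusted p = 0.0418, or 0.0824 with scan batch as a block) and fell by 0.57 on the control diet (SE 0.14, limma adjusted p = 0.00744). Sema4c was dim with shGAL, with group means of 6.12 on the PA-rich diet and 6.05 on the control diet, and passed the filter through the PLKO and shEGR2_38.9 groups, which lay above the threshold.

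The Eph family rises with shGAL were of similar size on the diets. Ephb3 was higher by 0.49 on the PA-rich diet (SE 0.11, limma adjusted p = 0.00417) and by 0.41 on the control diet (SE 0.11, limma adjusted p = 0.012), where the call was lost without shGAL control replicate 2 (0.32). Its values were 7.96, 8.04 and 8.04 with shGAL on the PA-rich diet, against 7.61, 7.42 and 7.55 with PLKO, and 8.05, 8.31 and 8.02 with shGAL on the control diet, against 7.68, 7.73 and 7.74 with PLKO. Epha2 was higher by 0.43 on the PA-rich diet (SE 0.08, limma adjusted p = 0.0011) and by 0.39 on the control diet (SE 0.08, limma adjusted p = 0.00247). Both receptors were above the PLKO range on every shGAL array. Efnb1, a transmembrane ligand of EphB receptors, was higher by 0.36 on the PA-rich diet (limma adjusted p = 0.0151, or 0.0635 with scan batch as a block) and by 0.55 on the control diet (limma adjusted p = 0.000426). Plxnb2 was higher by 0.32 on the PA-rich diet (limma adjusted p = 0.009, or 0.0748 with the block) and by 0.38 on the control diet (limma adjusted p = 0.00193).

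Some calls with shGAL were made on 1 diet, and the difference between the diets was tested only as the interaction above. On the PA-rich diet Sema6a was higher by 0.44 (SE 0.09, limma adjusted p = 0.00207) and Sema4b was higher by 0.27 (a call lost without any of the 6 arrays compared), while Efna5 fell by 0.41 (SE 0.08, limma adjusted p = 0.000738) and Ntn4 fell by 0.41 (limma adjusted p = 0.0172, or 0.0582 with the block). On the control diet Sema5a, a semaphorin with thrombospondin repeats, had log2 values of 9.86, 9.15 and 9.42 with shGAL, against 10.18, 10.40 and 10.27 with PLKO. The shGAL arrays were scattered but all lower, and Sema5a fell by 0.80 (SE 0.16, limma adjusted p = 0.00147). Sema3c was higher by 0.44, Unc5c by 0.42 and Efnb2, the ephrin of arteries, by 0.29 (limma adjusted p = 0.0384, or 0.116 with the block). Marker lists moved with these comparisons too. Of 14 endothelial markers 1 was higher with shGAL on each diet, Flt1 (1.36 on the PA-rich and 1.29 on the control diet). Of 6 lymphatic endothelial markers 0 passed on the PA-rich diet and 5 were lower on the control diet (median -0.75). Among 8 markers of pericytes and smooth muscle, 2 fell below PLKO on each diet, Acta2 (-0.41) and Myh11 (-1.10) on the PA-rich diet and Myh11 (-1.24) and Mylk (-1.09) on the control diet. Of 5 fibroblast markers 1 was lower on the PA-rich diet, Postn (-0.75), and 2 on the control diet, Postn (-0.82) and Thy1 (-0.26). Of 5 macrophage markers 0 passed on the PA-rich diet, and 1 was higher and 2 lower on the control diet. Among 5 Schwann cell and glial markers, Erbb3 was higher by 0.23 on the PA-rich and by 0.28 on the control diet. Ngfr was lower on the PA-rich diet (-0.35). Of 6 neuronal markers 1 was higher on the PA-rich diet, Tubb3 (0.43), and 0 passed on the control diet. The part of these cell types in the differences of the guidance genes was not tested.

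**Figure D4:**
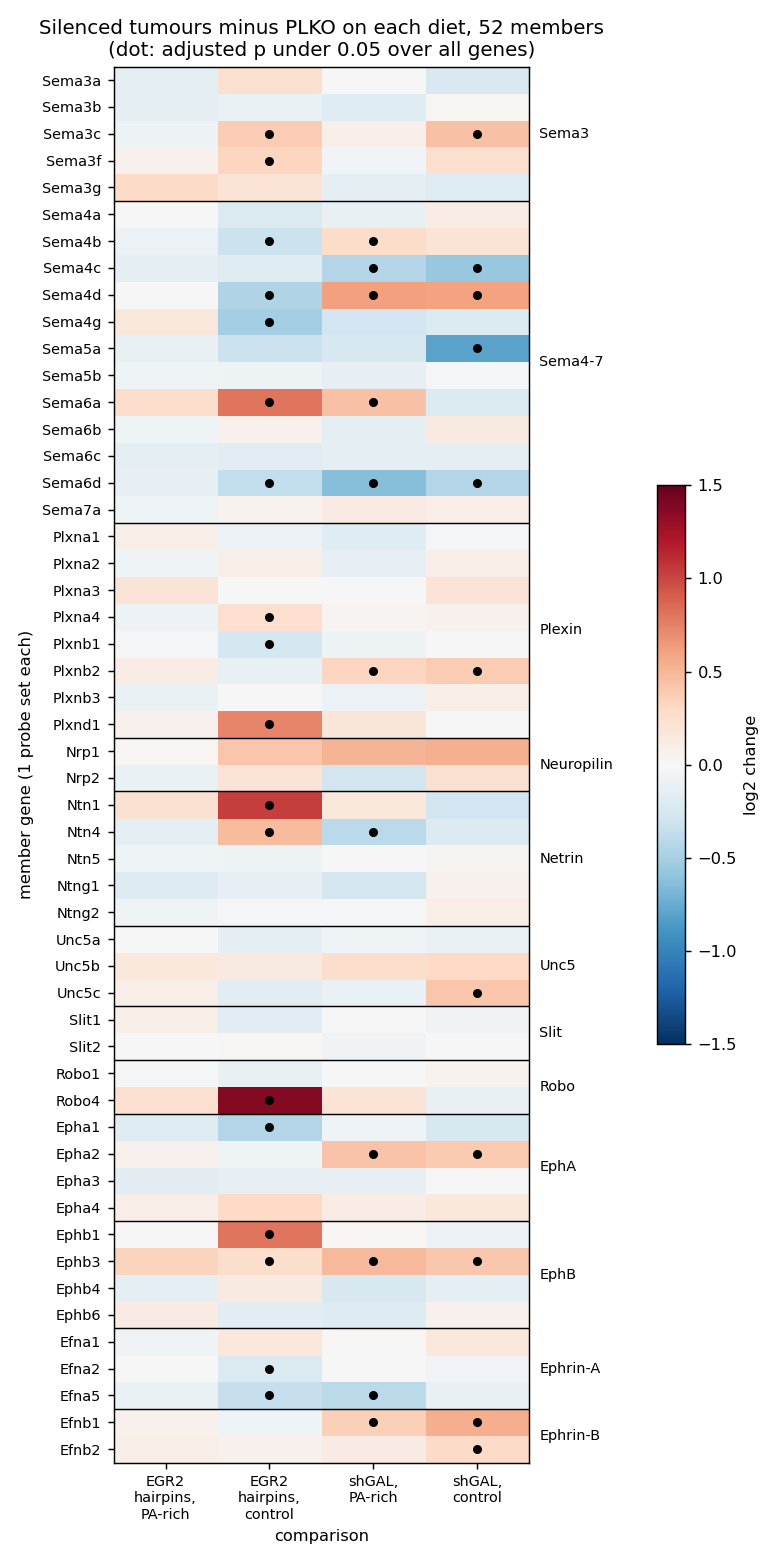
Log2 change of the 52 tested members for silenced tumours minus PLKO, in columns for the EGR2 hairpins on the PA-rich and control diets and shGAL on the PA-rich and control diets, rows grouped by family; blue is lower and red higher than PLKO, and a dot marks an adjusted p under 0.05 over all genes. The dots number 0, 18, 11 and 11 in the order of the columns; Sema4d is blue for the EGR2 hairpins on the control diet and red with shGAL on both diets.

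Counts for some families follow, chosen after their values were seen. Of 8 tested plexins, 5 passed in the diet comparison with shEGR2_38.9, 3 higher and 2 lower, against 22.1% of all genes, and 1 passed with shEGR2_40.9, against 8.95% of all genes. Of 12 class 4 to 7 semaphorins, 5 passed between the EGR2 hairpins and PLKO on the control diet, 1 higher and 4 lower, against 25.2% of all genes, and 5 between shGAL and PLKO on the PA-rich diet, 3 higher and 2 lower, against 12.4% of all genes. The Slit ligands passed in 0 of 10 comparisons, as did 2 of the 3 tested Unc5 receptors, counts that have no background over all genes. Without the array that stood apart, Slit1 passed in the interaction of the EGR2 hairpins (0.30, limma adjusted p = 0.0484). Unc5b then passed between shGAL and PLKO on the control diet (0.30, limma adjusted p = 0.023). Nrp1, the co-receptor of Sema3a and of VEGF, passed in none, although with the scan batch as a block it was higher with shGAL than with PLKO on the control diet (0.74, limma adjusted p = 0.0419). It had values on the control diet of 7.96, 8.17 and 7.05 for shEGR2_38.9, of which the last is the array that stood apart, against 7.34, 7.44 and 6.69 for PLKO. Without that array, Nrp1 (-0.76, limma adjusted p = 0.00554) and Nrp2 (-0.31, limma adjusted p = 0.00131) fell on the PA-rich diet with shEGR2_38.9. Nrp1 was then also higher with shGAL than with PLKO on the PA-rich diet (0.51, limma adjusted p = 0.0383) and the control diet (0.53, limma adjusted p = 0.0239). Nrp2 then passed in both interactions, for the EGR2 hairpins (-0.40, limma adjusted p = 0.000624) and for shGAL (-0.51, limma adjusted p = 0.00148). With shGAL, Nrp2 was then lower than with PLKO on the PA-rich diet (-0.28, limma adjusted p = 0.00163). It was higher on the control diet (0.23, limma adjusted p = 0.00546).

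Of 55 genes for co-receptors, cytoplasmic mediators and cytoskeletal effectors of guidance signalling, a list chosen with earlier results of these data known, 45 were tested. With shEGR2_40.9 the PA-rich diet went with 8 falls and 0 rises among them, which is 17.8%, against 8.95% of all genes (3.73% higher, 5.22% lower). With shEGR2_38.9 it went with 12 falls and 3 rises, which is 33.3%, against 22.1% of all genes (13.8% higher, 8.30% lower). The 3 rises were those of Pak3 (0.65), Rgma (0.42) and Enah (0.41). The collapsin response mediators, which carry Sema3a signals to the cytoskeleton, fell with both hairpins: Dpysl2 fell by 1.17 with shEGR2_40.9 and fell by 1.05 with shEGR2_38.9, Dpysl3 fell by 0.99 with shEGR2_40.9 and fell by 1.48 with shEGR2_38.9, and Crmp1 fell by 0.41 with shEGR2_40.9 and fell by 0.75 with shEGR2_38.9. Gap43, a growth cone protein, fell by 1.83 with shEGR2_40.9 (SE 0.16, limma adjusted p = 1.98e-07) and fell by 1.61 with shEGR2_38.9 (SE 0.16, limma adjusted p = 1.2e-07). The tyrosine kinases Fyn and Fes, which act below plexins, fell as well: Fyn fell by 0.82 with shEGR2_40.9 and fell by 1.02 with shEGR2_38.9, and Fes fell by 0.47 with shEGR2_40.9 and fell by 0.94 with shEGR2_38.9. Between the EGR2 hairpins and PLKO on the control diet, 13 of the 45 were higher and 2 lower, which is 33.3%, against 25.2% of all genes (10.8% higher, 14.5% lower). On the PA-rich diet 1 was higher, Fyn (0.40, limma adjusted p = 0.00393), which is 2.22%, against 1.11% of all genes. Between shGAL and PLKO, 9 were higher and 1 lower on the PA-rich diet, which is 22.2%, against 12.4% of all genes, and 7 were higher and 8 lower on the control diet, which is 33.3%, against 17.0% of all genes.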

How the data were processed

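Expression was measured on Affymetrix mouse arrays in 24 samples, 3 for each of 8 groups of hairpin and diet. The deposited values are log2 values that the authors made by RMA with affy, per the submitters' processing notes; versions and a genome build are not given in the sources used here. No sample or column was left out, and 0 pairs of arrays held identical values. There is no count depth, and 3 arrays per group limit the precision.

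Of 45141 probe sets, the 28898 with 1 gene symbol in the supplied platform annotation were used, 551 had several symbols and 15692 none. By Entrez identifier, 99.28% of those with 1 symbol matched the supplied gene table. Each gene was represented by its probe set of the highest mean, and 5253 genes with a mean below the 40th percentile (6.27) were left out as dim, which left 11844. One linear model of the 8 group means was fitted with limma 3.58.1 in R 4.3.3, with empirical Bayes two-sided tests and Benjamini-Hochberg adjustment over the 11844 genes within each comparison, at a threshold of 0.05. For EGR2 the mean of 2 hairpins was compared with PLKO. Standard errors are those of the model. The members were chosen by gene symbol, and the members, the marker and signalling lists, the tests and the alternatives were chosen with earlier results of these data known. Members past the threshold are named, with array values for up to 6 of the largest changes of 1 sign in a comparison and for a few others chosen after their values were seen.

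The scan batch in the labels goes with the replicate number within a hairpin and holds both diets, so these numbers pair arrays by label. Each of the 6 scan batches held 4 arrays and not all hairpins. On each diet, PLKO shared a batch with only 1 array of every other hairpin. Hairpin and scan batch were therefore partly confounded in the main comparisons with PLKO, which carry no batch term. Correlations of deviations from the group means between same-number arrays of a hairpin ran from -0.03 to 0.24, with 7 of 12 over 0.1. The scan batch as a block was 1 alternative, and others changed the dim filter, the choice of probe set, the scaling and the arrays in the fit. The procedure was tested on simulated data. Promoter sequences are from RefSeq (GRCm38.p6), which held 4 of the 5 genes looked up.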

Additional observations from a re-analysis of the deposited data

Results flagged for a closer look

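The diet effect differed between hairpins in the tests of that difference itself for 12 values. For the mean of the EGR2 hairpins minus PLKO the differences were -1.15 for Robo4, -0.81 for Ntn1, -0.79 for Ephb1, -0.66 for Plxnd1, -0.62 for Ntn4, -0.54 for Sema6a, -0.46 for Sema3c, -0.34 for Plxna4, 0.45 for Sema4d and 0.69 for Sema4g on the log2 scale. Of these genes, only Sema3c, Sema4g and Sema6a passed in the main fit with shEGR2_40.9 alone. Without the array that stood apart, Robo4, Ntn1 and Plxnd1 passed with shEGR2_40.9 alone as well. For shGAL minus PLKO the differences were 0.65 for Sema6a and -0.52 for Unc5c. A negative value means a more negative change from the control to the PA-rich diet than with PLKO. In Sema3c the change with PLKO itself was 0.41, and the changes with the EGR2 hairpins did not pass. In Ephb1 the PLKO group means lay under the dim threshold on both diets. In Sema4d the value came from shEGR2_38.9, with 0.95, against -0.04 with shEGR2_40.9, and was 0.23 with the mean of its probe sets, which did not pass (limma adjusted p = 0.164).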

How the results depend on the processing

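The 86 member values past the threshold were refitted with the scan batch as a block, without the dim filter or with it at the 50th percentile, with the mean of a gene's probe sets, with renewed quantile normalization, with arrays centred on their median, with only the arrays compared and without each array in turn. Of these values, 53 kept their direction and call in every alternative that gave a value, and 33 lost the call at least once. The 50th percentile filter gave no value for Ephb1, Sema3a, Plxna4 and Sema4c. Of the 2655 alternative values 2 reversed: with the mean of all probe sets Epha1 was -0.19 for the diet effect with shEGR2_38.9 and 0.21 for the EGR2 hairpins minus PLKO on the control diet. The replicate block (scan batch) ended 12 of the 86 calls, given beside the values, and added 7 in the same 10 comparisons, Sema5a and Sema6d for the diet effect with shGAL (4 members in place of 2), Sema4a and Sema5a for the EGR2 hairpins and Epha1 and Nrp1 for shGAL against PLKO on the control diet, and Ephb4 for shGAL on the PA-rich diet. With only the arrays compared 18 of the 86 calls did not pass, and with the mean of all probe sets 3 did not pass beside the 2 that reversed. For the diet effect with PLKO, 2 members passed with the mean of all probe sets, and 0 with renewed quantile normalization and 0 with only the arrays compared. With only the arrays compared, 1 member passed between the EGR2 hairpins and PLKO on the PA-rich diet and 17 passed between shGAL and PLKO on the PA-rich diet.

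Leaving out 1 array at a time, the count of members ran from 6 to 10 for the diet effect with shEGR2_40.9, 19 to 27 with shEGR2_38.9, 1 to 4 with shGAL and 0 to 1 with PLKO. It ran from 8 to 15 and from 1 to 3 for the interactions of EGR2 and shGAL. Against PLKO it ran from 0 to 1 on the PA-rich diet and 13 to 24 on the control diet for the EGR2 hairpins, and from 6 to 16 on the PA-rich diet and 10 to 15 on the control diet for shGAL. The highest value in each of these ranges but that with PLKO was reached without the array that stood apart, control-diet replicate 3 of shEGR2_38.9. The lowest for shGAL on the PA-rich diet was without PLKO PA-rich replicate 2. The F test gave 29 to 36. The cause of these moves was not tested.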

Other observations

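Without the dim filter, all 69 members could be tested, and 3 dim members passed with shEGR2_38.9 in the diet comparison. Sema3d, a secreted class 3 semaphorin, fell by 0.68 on the PA-rich diet (SE 0.13, limma adjusted p = 0.000498) and was higher by 0.46 with the EGR2 hairpins than with PLKO on the control diet (limma adjusted p = 0.00437). Plxna4os1, the antisense transcript, fell by 0.37 on the PA-rich diet (limma adjusted p = 0.00209), and the array data do not settle how far its probe set is separate from Plxna4. Efna4 rose by 0.32 (limma adjusted p = 0.00799). Efnb3 was higher by 0.31 with shGAL than with PLKO on the control diet (limma adjusted p = 0.0272).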
